A study of Mus musculus with 4 samples.

Results

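The 7 genes described here, Tnfrsf11a, Nfatc1, Dcstamp, Ocstamp, Atp6v0d2, Acp5 and Ctsk, are best known from the osteoclast, and they were followed through the cell classes of mouse aorta. They were taken by gene symbol from the 32285 genes of the count matrices, and every one of the 7 was found. They were proposed with results of these libraries in view, in which Atp6v0d2 stood among the leading genes of a macrophage-related cluster. Their high level in such nuclei is therefore given as a description and is not evidence of its own.

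Nuclei of aortic tissue were sequenced as 3' RNA libraries with unique molecular identifiers (UMIs), and all mice carried a CA1 knock-in on an ApoE-/- background. CA1 is carbonic anhydrase 1, which interconverts carbon dioxide and bicarbonate, and mice without ApoE readily develop atherosclerosis. Each of the 4 groups was represented by a single library, so 1 library stood for 1 group. In the group called MTZ-after here, mice ate high-fat food and received methoxazolamide (MTZ), described by the submitters as an inhibitor of CA1, after atherosclerosis was established. In MTZ-simultaneous the drug was given together with the high-fat food. In high-fat the mice ate the high-fat food only, and in untreated they received neither. The sources used here do not give the sex and age of the mice, how many were pooled in a library, or the promoter of the knock-in. With 1 library in a group no difference could be set against variation between animals, so no test was made, and every interval below is a 95% interval that covers counting error only.

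Osteoclasts are large cells of the macrophage lineage that dissolve bone. The cytokine RANKL binds the receptor RANK, encoded by Tnfrsf11a, and signalling through it switches on Nfatc1, the transcription factor known as the master regulator of osteoclast formation. Dcstamp and Ocstamp encode membrane proteins required for precursor cells to fuse into multinucleated osteoclasts. Atp6v0d2 encodes the d2 subunit of the V0 sector of the vacuolar proton pump, which acidifies lysosomes and the space under a resorbing osteoclast. Acp5 encodes tartrate-resistant acid phosphatase, the classical histochemical marker of the osteoclast, and Ctsk encodes cathepsin K, the protease that degrades bone collagen. In atherosclerotic arteries, macrophages that take up lipoprotein lipid become foam cells and carry high amounts of lysosomal genes.

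In GRCm38 (mm10) with the GENCODE vM21 annotation, Tnfrsf11a lay on the plus strand at chr1:105780718-105847981 and Ctsk on the plus strand at chr3:95499256-95509362. Dcstamp lay on the plus strand at chr15:39745930-39760938. On the minus strand were Ocstamp at chr2:165393760-165400405, Atp6v0d2 at chr4:19876841-19922605 and Acp5 at chr9:22126727-22135711. Acp5 shares all of its 8985 bases, exons included, with 6530413G14Rik on the opposite strand. The sources used here do not state the strand setting of the counting, and reads of Acp5 and its antisense partner cannot be told apart with certainty. The partner was counted 3, 3, 10 and 4 times in the foam-type nuclei of MTZ-after, MTZ-simultaneous, high-fat and untreated, against 40, 69, 306 and 287 counts of Acp5.

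Promoter windows of RefSeq (GRCm38.p6) were taken for 3 of the 7 genes, with 5 windows in all, and none was used for the other genes. The 250 bases before a transcript start are shown, 5′ to 3′ along the gene, for the resorption enzymes and the receptor. The windows were searched on both strands for the NFAT core GGAAA, the AP-1 site TGANTCA, the MITF and TFE E-box CACATG and the PU.1 core GAGGAA, and capitals mark each match, including the reverse complements TTTCC and TTCCTC. None of these matches overlapped another.
Acp5, chr9:22130599-22130848, minus strand: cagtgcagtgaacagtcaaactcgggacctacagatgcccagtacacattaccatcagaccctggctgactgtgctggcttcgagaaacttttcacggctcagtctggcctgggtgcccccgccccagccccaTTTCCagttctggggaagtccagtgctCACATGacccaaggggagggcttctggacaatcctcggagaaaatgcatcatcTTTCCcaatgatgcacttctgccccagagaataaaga
Ctsk, chr3:95498960-95499209, plus strand: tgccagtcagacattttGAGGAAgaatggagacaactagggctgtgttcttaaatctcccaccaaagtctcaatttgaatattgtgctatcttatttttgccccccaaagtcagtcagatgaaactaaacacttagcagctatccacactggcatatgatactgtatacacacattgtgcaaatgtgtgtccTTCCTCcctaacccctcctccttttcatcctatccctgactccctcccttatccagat
Tnfrsf11a, chr1:105780473-105780722, plus strand: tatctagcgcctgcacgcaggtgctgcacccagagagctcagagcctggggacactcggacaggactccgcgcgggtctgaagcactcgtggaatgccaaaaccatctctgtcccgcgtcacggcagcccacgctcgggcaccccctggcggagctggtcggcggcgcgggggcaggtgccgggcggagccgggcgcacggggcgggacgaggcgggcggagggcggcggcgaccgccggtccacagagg
This Acp5 window held 2 NFAT cores and 1 E-box, and the other 2 Acp5 windows held 1 NFAT core each. The Ctsk window held 2 PU.1 cores, and none of the 4 motifs was found in the Tnfrsf11a window. Over 32851 RefSeq windows of the same length, 55.6% held the NFAT core, 23.3% the PU.1 core, 12.3% the E-box and 6.75% the AP-1 site. A match says only that these letters are there, and it was not used to explain any level below.

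The deposited matrices held 19335 to 38114 nuclei with 31517272 to 69201159 UMIs per library, and the median nucleus held 827 UMIs in MTZ-after, 1420 in MTZ-simultaneous, 969 in high-fat and 2026 in untreated. Filtering left 99725 nuclei in 34 clusters. Pairs of libraries shared 119 to 376 barcodes, at most 1.34% of the smaller library. Clusters were named from marker genes, none of which was one of the 7, and the 7 genes were also left out of the clustering. Nuclei without a name made up 33.9% of MTZ-after, 21.5% of MTZ-simultaneous, 68.2% of high-fat and 14.3% of untreated. Brown-adipocyte-like nuclei numbered 883, 687, 237 and 6945, so levels over all nuclei also move with the mix of cells.

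Clusters 2 and 15 were enriched in 7 and 9 of 14 macrophage markers and in 7 and 9 of 11 markers of lipid-laden macrophages, and together are called foam-type. They held 1044 nuclei in MTZ-after, 977 in MTZ-simultaneous, 6796 in high-fat and 1066 in untreated, which were 4.01%, 5.48%, 19.4% and 5.13% of kept nuclei in that order. Cluster 12 had the resident-macrophage genes Cd163 and F13a1 and the monocyte genes Ccr2 and Adgre4 among its leading genes. It was enriched in 7 of 10 monocyte or dendritic, 4 of 6 neutrophil and 6 of 14 macrophage markers, the last with the lowest mean enrichment. It is called resident macrophage-and-monocyte-like, or resident for short, with 705, 657, 442 and 960 nuclei. Cluster 24, a cavity-type macrophage cluster, held 183, 676, 40 and 29 nuclei, and the 3 kinds together are called macrophage-like. T- or NK-like nuclei, with 343, 334, 407 and 585 nuclei, served as cells that are not expected to transcribe Atp6v0d2, Acp5 or Ctsk. All 14 macrophage markers were counted in the foam-type nuclei of each library, with summed levels of 3291 to 5697 CPM, which stands for UMIs of a gene per 1000000 UMIs of the class, against 626 to 1290.1 CPM in T- or NK-like nuclei. The 11 foam-cell markers summed to 11276 to 17540.4 CPM in foam-type nuclei, against 3082 to 5204 CPM in T- or NK-like nuclei. Their part in the levels of the 7 genes outside macrophages was not tested.

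The name osteoclast-type held for some of the genes and not for others. Atp6v0d2, Ctsk and Tnfrsf11a had their highest CPM of all classes in foam-type nuclei of all 4 libraries. Acp5 had its highest level there only in untreated, Nfatc1 in no library, and Dcstamp and Ocstamp were close to the detection floor. Of 5 further osteoclast genes that are not among the 7 (Calcr, Mmp9, Oscar, Siglec15 and Itgb3), the calcitonin receptor Calcr had 0 counts in the foam-type nuclei of MTZ-after, MTZ-simultaneous and untreated. Oscar had 0 counts in both MTZ libraries and Siglec15 in MTZ-after. The 5 together reached 62.8, 76.6, 67.3 and 90.1 CPM in foam-type nuclei of MTZ-after, MTZ-simultaneous, high-fat and untreated. The sums were 50.7, 28.1, 32.5 and 27.6 CPM in resident nuclei and 40.5, 47.1, 46.2 and 56.7 CPM in T- or NK-like nuclei. In T- or NK-like nuclei of both MTZ libraries, Itgb3 was the only gene of the 5 with any counts. The same held in foam-type cluster 15 of MTZ-simultaneous and untreated, so such a sum can be that of 1 gene. Genes of bone and cartilage (Bglap, Bglap2, Ibsp, Sp7, Col2a1 and Acan) gave 3, 4, 29 and 1 counts in foam-type nuclei. The foam-type nuclei are therefore called foam-type below and not osteoclast-like.

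**Figure D1:**
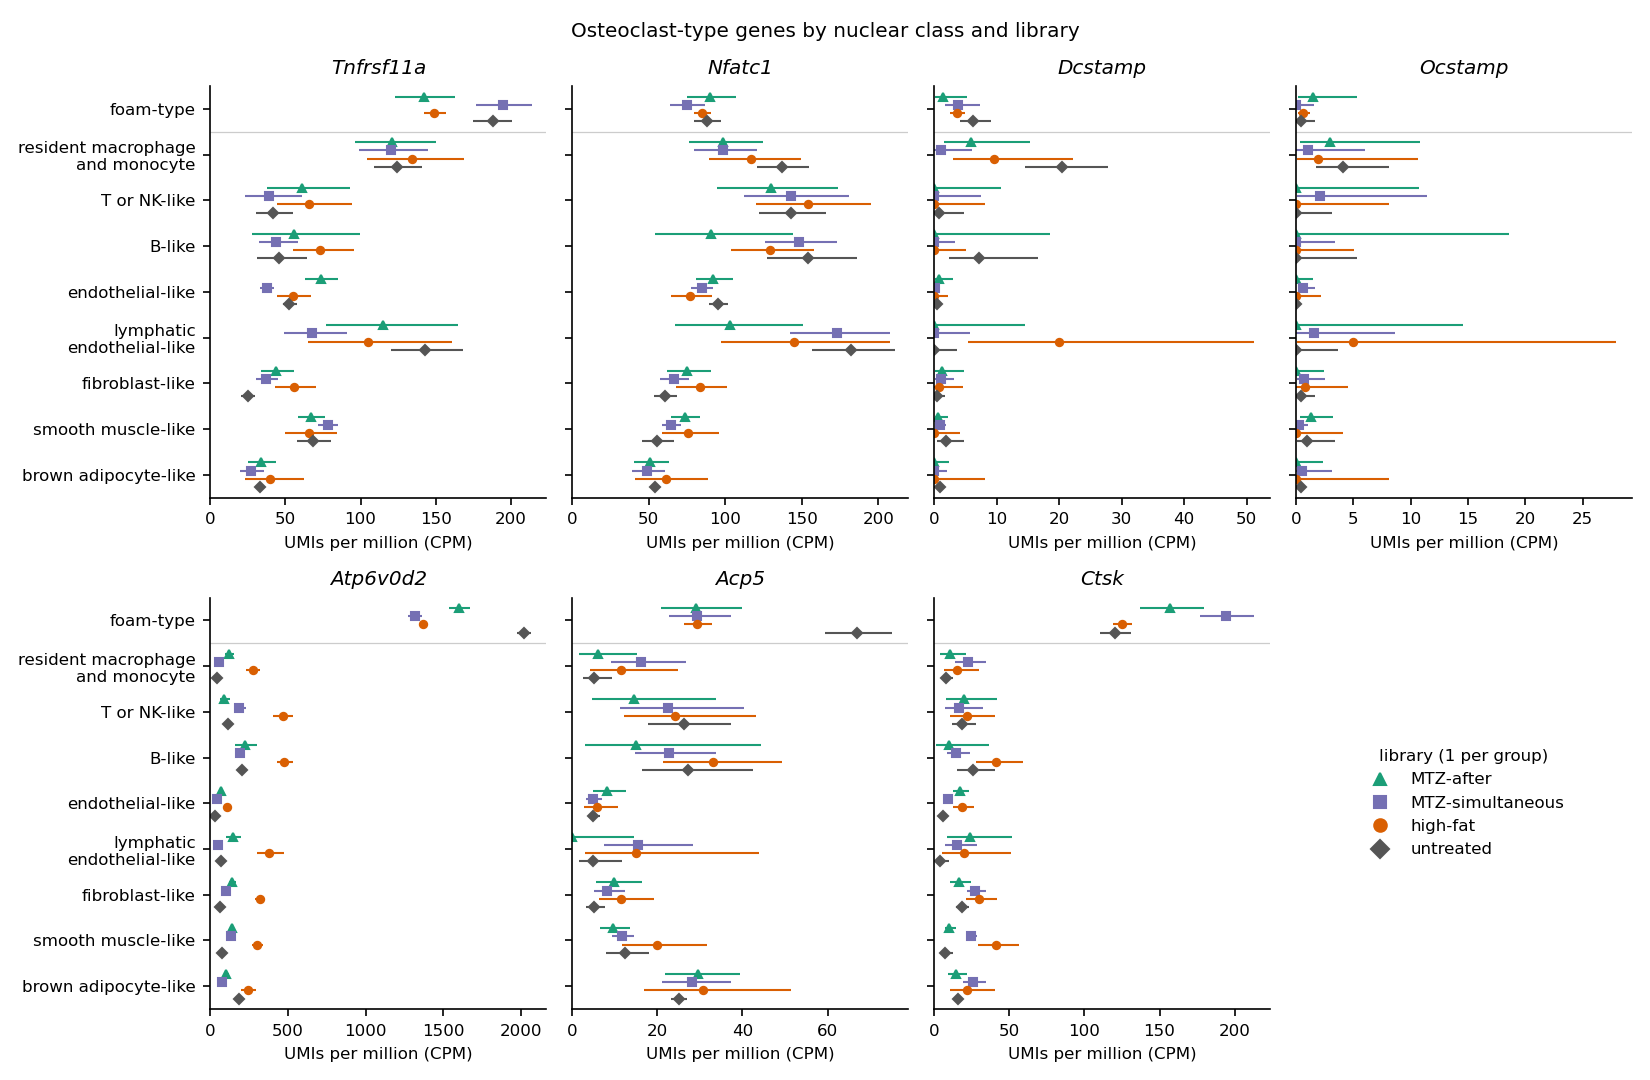
Level of each of the 7 genes (CPM of summed counts on a linear axis from 0, its own for each gene, 95% counting intervals) in 9 cell classes, with 1 point per library. Atp6v0d2, Ctsk and Tnfrsf11a are highest in foam-type nuclei in all 4 libraries, Tnfrsf11a by less than 2-fold over resident macrophage-and-monocyte-like nuclei. Nfatc1 lies at 74.9 to 89.9 CPM in foam-type nuclei and at 98.5 to 137 CPM in resident ones.

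The receptor gene Tnfrsf11a was counted in every macrophage class. Its level in foam-type nuclei was 142 CPM in MTZ-after, 195 CPM in MTZ-simultaneous, 149 CPM in high-fat and 188 CPM in untreated. In resident macrophage-and-monocyte-like nuclei it was 121, 120.2, 134 and 124 CPM, which is a difference of less than 2-fold between these classes. Cavity-type macrophages lay below both, with 88.9 CPM (51.8 to 142) in MTZ-after. In MTZ-simultaneous their level was 79.7 CPM (64.6 to 97.4), and high-fat and untreated had too few of these nuclei. The ratio of foam-type to resident nuclei was 1.17 (0.901 to 1.54) in MTZ-after, 1.62 (1.32 to 2.01) in MTZ-simultaneous, 1.12 (0.878 to 1.44) in high-fat and 1.51 (1.31 to 1.75) in untreated. In MTZ-after and high-fat the interval of that ratio included 1. T- or NK-like nuclei had 60.7, 38.9, 66.0 and 41.5 CPM. Outside macrophages, lymphatic-endothelial-like nuclei came closest among the named classes in untreated, with 143 CPM (120.1 to 168). Foam-type nuclei held 10.5%, 20.3%, 36.5% and 24.3% of all Tnfrsf11a counts of MTZ-after, MTZ-simultaneous, high-fat and untreated. In untreated, brown-adipocyte-like nuclei held more, with 950 counts at 33.0 CPM against 805 in foam-type nuclei.

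Nfatc1, which acts downstream of RANK in osteoclast precursors, did not follow the receptor. It lies on the minus strand at chr18:80606205-80713071 (GRCm38) and shares 2571 intronic bases with the antisense gene AC123818.1. Foam-type nuclei had 89.9 CPM in MTZ-after, 74.9 in MTZ-simultaneous, 84.9 in high-fat and 88.0 in untreated. Resident macrophage-and-monocyte-like nuclei had 98.5, 98.5, 117 and 137 CPM, and T- or NK-like nuclei 130.1, 143, 154 and 143 CPM. In each of the 4 libraries foam-type nuclei had the lowest of these 3 levels. Lymphatic-endothelial-like nuclei led in MTZ-simultaneous with 173 CPM and in untreated with 182 CPM, T- or NK-like nuclei led in high-fat, and an unnamed cluster led in MTZ-after with 133 CPM. NFAT proteins are known as regulators of lymphocyte activation, and Nfatc1 also has a known role in lymphatic endothelium. The foam-type to resident ratio was 0.913 (0.672 to 1.25) in MTZ-after, 0.760 (0.587 to 0.990) in MTZ-simultaneous, 0.729 (0.562 to 0.961) in high-fat and 0.641 (0.547 to 0.753) in untreated.

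The fusion genes were rare. Dcstamp gave 31, 29, 104 and 121 counts over all kept nuclei of MTZ-after, MTZ-simultaneous, high-fat and untreated. Foam-type nuclei held 2, 9, 38 and 27 of them, or 1.46, 3.83, 3.65 and 6.30 CPM. Resident macrophage-and-monocyte-like nuclei held 4, 1, 5 and 40, and only untreated stood out, with 20.5 CPM (14.6 to 27.9). Those 40 counts came from 11 nuclei, and the 27 foam-type counts of untreated from 7 nuclei, so a handful of nuclei with several counts each set the untreated level. Ocstamp gave 17, 18, 22 and 29 counts over all kept nuclei. Foam-type nuclei held 2, 0, 6 and 2 of these, and the count of 0 in MTZ-simultaneous allows a level of up to 1.28 CPM by the floor of 3 counts. Resident macrophage-and-monocyte-like nuclei held 2, 1, 1 and 8. These counts are too few to order the classes for Ocstamp.

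Atp6v0d2 was the gene that marked foam-type nuclei. Its level there was 1599.7 CPM (1533 to 1668) in MTZ-after, 1316 CPM (1269.9 to 1363) in MTZ-simultaneous, 1365 CPM (1343 to 1388) in high-fat and 2017 CPM (1975 to 2059.9) in untreated. The untreated library was highest, and the values of the 3 high-fat-fed libraries lay below it. Resident macrophage-and-monocyte-like nuclei had 122, 55.2, 273 and 40.4 CPM, which made foam-type nuclei 13.1-fold (10.5 to 16.5) higher in MTZ-after, 23.8-fold (18.1 to 32.1) in MTZ-simultaneous, 5.00-fold (4.24 to 5.94) in high-fat and 49.9-fold (40.0 to 63.1) in untreated. The smaller ratio of high-fat went with a higher level in resident nuclei. With every nucleus thinned to 500 UMIs, 46.5%, 40.5%, 43.9% and 49.6% of foam-type nuclei had at least 1 UMI of Atp6v0d2. The share in T- or NK-like nuclei was 3.21%, 7.19%, 19.2% and 3.59%. Without thinning the foam-type shares were 67.8%, 71.4%, 70.7% and 81.1%, at median depths of 989.5, 1611, 1156.5 and 2703 UMIs, and the T- or NK-like shares 7.58%, 17.7%, 28.7% and 9.23%, at 785, 1048, 856 and 1456 UMIs.

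Atp6v0d2 counts were thus also found in cells that are not expected to transcribe the gene, most of all in high-fat. T- or NK-like nuclei had 89.6, 187, 467 and 116 CPM in MTZ-after, MTZ-simultaneous, high-fat and untreated. In high-fat those nuclei held 63.7 counts of St18 (50.9 to 79.4) and 158 of Gpnmb (133 to 189) for every 100 of Atp6v0d2, against 62.4 (60.8 to 64.1) and 178 (175 to 182) in foam-type nuclei. In untreated the same values were 51.8 (38.3 to 69.5) and 174 (141 to 217), against 53.4 (51.5 to 55.4) and 203 (198 to 208). St18 and Gpnmb were picked for their likeness to Atp6v0d2 over these same libraries, so nothing is read from these ratios. In other nuclei the ratios differed, as in T- or NK-like nuclei of MTZ-after, where St18 stood at 148 (92.1 to 242) on 31 counts of Atp6v0d2, against 50.5 (47.0 to 54.3) in foam-type nuclei. In resident nuclei of untreated, St18 stood at 153 (114 to 206) and Gpnmb at 311 (241 to 406). For every 100 counts of Atp6v0d2, T- or NK-like nuclei of untreated held 16.1 of Ctsk (9.74 to 25.3), against 5.97 (5.45 to 6.53) in foam-type nuclei. In untreated, brown-adipocyte-like nuclei held 5270 of the 16834 Atp6v0d2 counts, at 183 CPM. Unnamed nuclei held 24.1%, 19.8%, 47.5% and 7.18% of all Atp6v0d2 counts, and foam-type nuclei 33.2%, 42.5%, 46.4% and 51.3%. Unnamed cluster 4, which was enriched in 6 of 14 macrophage and 4 of 6 plasma-cell markers, held 4.37%, 3.78%, 10.1% and 0.665% of them. Some of the unnamed counts thus lay in nuclei that carry macrophage markers. More lay in unnamed cluster 3, with 455, 413, 6324 and 498 counts against 288, 275, 3093 and 112 in cluster 4. Cluster 3 was enriched in 0 of the foam-cell markers and matched no class by its markers. Its leading genes Slc7a10, Trhde, Cyp2e1 and Nnat were also among those of the adipocyte-like cluster.

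Ctsk, the collagen-degrading protease, was likewise highest in foam-type nuclei, at fewer counts. Foam-type nuclei had 157 CPM (215 counts) in MTZ-after, 194 CPM (456) in MTZ-simultaneous, 125 CPM (1302) in high-fat and 120.4 CPM (516) in untreated. Resident macrophage-and-monocyte-like nuclei had 10.4, 22.7, 15.3 and 7.68 CPM, and T- or NK-like nuclei 20.2, 16.4, 22.0 and 18.6 CPM. Foam-type nuclei were above resident nuclei by 15.0-fold (7.18 to 37.9), 8.53-fold (5.52 to 13.9), 8.20-fold (4.15 to 19.0) and 15.7-fold (9.42 to 28.2) in that order of libraries. Foam-type nuclei held 31.1%, 37.0%, 49.8% and 38.1% of all Ctsk counts. In untreated, brown-adipocyte-like nuclei held 454 of the 1354 Ctsk counts, at 15.8 CPM. The level in resident nuclei was below that in T- or NK-like nuclei in MTZ-after, high-fat and untreated and above it in MTZ-simultaneous.

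Over foam-type nuclei as a whole, Acp5 led the classes only in untreated. Foam-type nuclei had 29.2 CPM (40 counts) in MTZ-after, 29.4 CPM (69) in MTZ-simultaneous, 29.4 CPM (306) in high-fat and 67.0 CPM (287) in untreated. Adipocyte-like nuclei had 29.6 CPM (5 counts), 41.0 CPM (31), 45.9 CPM (11) and 40.7 CPM (95). In the 3 high-fat-fed libraries these nuclei were thus at or above the foam-type level, with overlapping intervals. Foam-type cluster 15 by itself lay above the adipocyte-like level in each library, as given below, with overlapping intervals in the 3 high-fat-fed libraries. Brown-adipocyte-like nuclei had 29.6, 28.2, 30.7 and 25.1 CPM and held 52.4% of the Acp5 counts of untreated. T- or NK-like nuclei had 14.5, 22.5, 24.2 and 26.2 CPM. The foam-type to resident ratio was 4.90 (1.77 to 18.9) in MTZ-after, with 40 against 4 counts, 1.81 (1.02 to 3.4) in MTZ-simultaneous, 2.57 (1.17 to 7.05) in high-fat and 13.1 (7.01 to 27.6) in untreated.

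For a call, the levels had to differ by at least 2-fold in CPM, with 50 counts or more on the higher side. By that rule, Atp6v0d2 and Ctsk were called higher in foam-type than in resident nuclei in all 4 libraries, and no other of the 7 was. Only 4 of the 7 had enough counts in all 4 libraries. After thinning, the Ctsk call did not hold in all 4, and Atp6v0d2 alone was left. In untreated, 42 of 1066 thinned foam-type nuclei then held a Ctsk UMI. The share was 0.639% among 939 resident nuclei without Atp6v0d2 and 0 among 21 with it. Of all genes tested in this contrast, 8.64%, 8.38%, 14.3% and 10.5% were called higher in foam-type nuclei of MTZ-after, MTZ-simultaneous, high-fat and untreated, and 3.23%, 4.75%, 1.94% and 8.17% lower. Since the contrast helped to choose the genes, nothing is read from the count. Over T- or NK-like nuclei, Atp6v0d2, Ctsk and Tnfrsf11a were called higher in all 4 libraries, where 17.8%, 17.3%, 17.2% and 17.0% of all genes were, and 9.27% of those with enough counts in all 4 were called higher in all 4.

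The foam-type nuclei were made of distinct clusters, and Acp5 and Atp6v0d2 went opposite ways between them. Cluster 15 had Ctsl, Lyz2, Ftl1, Fth1, Ctsd and Cd68 among its 10 leading genes and held 154, 117, 1232 and 325 nuclei of MTZ-after, MTZ-simultaneous, high-fat and untreated. Cluster 2 had Mamdc2, St18 and Atp6v0d2 itself among its leading genes and held 890, 860, 5564 and 741. Acp5 had 61.2 CPM (34.2 to 101), 64.0 CPM (37.9 to 101), 59.8 CPM (49.8 to 71.2) and 175 CPM (152 to 200.4) in cluster 15, against 22.3, 24.6, 21.7 and 24.1 CPM in cluster 2. The level of cluster 2 was close to that of T- or NK-like nuclei, and cluster 15 lay 2.75-fold, 2.60-fold, 2.76-fold and 7.27-fold above cluster 2. In high-fat and untreated, where it held enough counts, Acp5 was called higher, as were 2.85% and 10.1% of all genes. Atp6v0d2 went the other way, with 1044, 953, 1126 and 1430.4 CPM in cluster 15 against 1721, 1365, 1426 and 2249 CPM in cluster 2, which are ratios of 0.607, 0.698, 0.789 and 0.636. Tnfrsf11a was likewise below cluster 2, with ratios of 0.647, 0.553, 0.804 and 0.578. Ctsk had 330.4 CPM (262 to 411) and 258 CPM (237 to 281) in cluster 15 of MTZ-after and high-fat, against 119 and 91.4 CPM in cluster 2. In MTZ-simultaneous and untreated it had 142 and 109 CPM in cluster 15, against 201 and 125 CPM in cluster 2. These differences were under 2-fold, so cluster 15 was above cluster 2 in part of the libraries only. Ctsk was called higher in cluster 15 of MTZ-after and high-fat, as were 4.00% and 2.85% of all genes. Nfatc1 was called lower in cluster 15 of MTZ-simultaneous (35.6 against 80.2 CPM), as were 9.66%.

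Other measures moved with the cluster. Cluster 15 held 1.78%, 1.73%, 1.49% and 2.45% of its counts in ribosomal protein genes, against 0.700%, 0.819%, 0.686% and 0.510% in cluster 2, and its 11 foam-cell markers summed to 50056, 20392, 28538 and 34176 CPM, against 10303, 10038, 10169 and 10950.3 CPM. The median depth was 1133.5, 1511, 1347 and 2058 UMIs in cluster 15, against 949, 1618.5, 1119.5 and 3002 in cluster 2. Their part in the split of Acp5 and Atp6v0d2 was not tested.

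**Figure D2:**
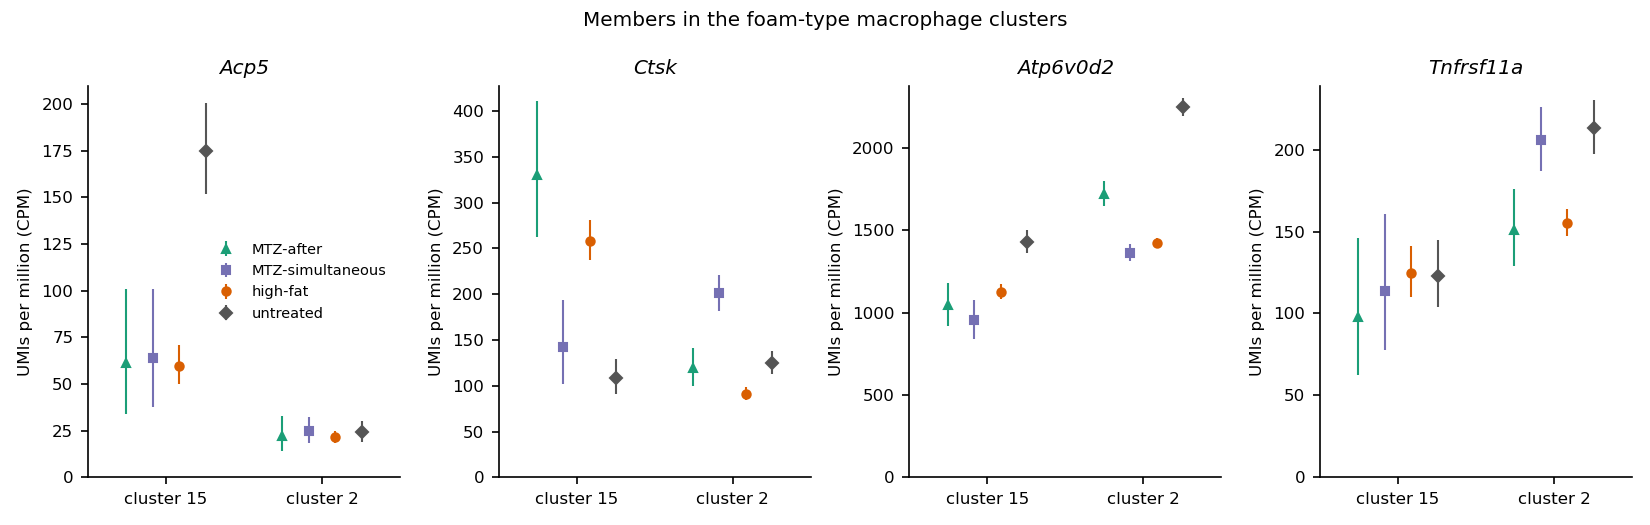
Level of Acp5, Ctsk, Atp6v0d2 and Tnfrsf11a (CPM with 95% counting intervals) in foam-type cluster 15 and in foam-type cluster 2, with 1 point per library. Acp5 is higher in cluster 15 in all 4 libraries and Atp6v0d2 and Tnfrsf11a are lower there, while Ctsk is higher in cluster 15 in MTZ-after and high-fat only.

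High-fat food was set against no treatment first over whole libraries. Over all kept nuclei, Atp6v0d2 had 664 CPM in high-fat and 260.5 CPM in untreated, a ratio of 2.55 (2.50 to 2.60), and Ctsk had 56.8 CPM in high-fat and 20.9 CPM in untreated, a ratio of 2.71 (2.54 to 2.90). Both were called higher, as were 6.50% of all 16360 genes tested. Tnfrsf11a had a ratio of 1.80 (1.72 to 1.89), Nfatc1 of 1.22 (1.17 to 1.28) and Acp5 of 0.927 (0.851 to 1.01). Foam-type nuclei held 22.6% of the UMIs of high-fat and 6.63% of those of untreated, and in whole libraries more nuclei of a type and more RNA of a gene per nucleus cannot be told apart.

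Within foam-type nuclei the same comparison gave another picture. Acp5 was called lower, with 29.4 CPM in high-fat against 67.0 CPM in untreated (ratio 0.439, interval 0.373 to 0.518), where 0.721% of 11237 genes were called lower and 7.61% higher. Atp6v0d2 had a ratio of 0.677 (0.659 to 0.695), Tnfrsf11a of 0.794 (0.729 to 0.866), Nfatc1 of 0.965 (0.855 to 1.09) and Ctsk of 1.04 (0.938 to 1.15), none of which was called. Centring each library before clustering ended that call, at 0.521, and thinning did so by leaving under 50 counts, at 0.495. In foam-type nuclei the 14 macrophage markers summed to 3355 CPM in high-fat and 5697 CPM in untreated, 9 fibroblast markers to 1021 and 512 CPM, and 6 plasma-cell markers to 86.0 and 32.0 CPM. In cluster 15 the macrophage markers summed to 5234 and 11152 CPM, and ribosomal protein genes took 1.49% and 2.45% of the counts. All of these markers were counted in high-fat, and in untreated 1 plasma-cell marker was at 0. Their part in the Acp5 call was not tested. Split by cluster, the Acp5 ratio was 0.342 (0.272 to 0.428) in cluster 15, where 2.98% of genes were called lower and 4.71% higher, and 0.90 (0.683 to 1.20) in cluster 2. Ctsk was called higher in cluster 15, with 258 CPM in high-fat and 109 CPM in untreated (2.38-fold, 1.96 to 2.90), and had a ratio of 0.731 (0.645 to 0.828) in cluster 2. The level of Atp6v0d2 was lower in high-fat in both, at 0.787 (0.739 to 0.838) in cluster 15 and 0.634 (0.615 to 0.653) in cluster 2. The median log2 ratio of the 5 of 7 genes with enough counts was -0.33, against 0.10 over all genes tested.

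In macrophage-like nuclei as a whole, of which foam-type nuclei were 6796 of 7278 in high-fat and 1066 of 2055 in untreated, Dcstamp was called lower, with 43 counts (3.92 CPM) in high-fat and 67 counts (10.6 CPM) in untreated. The ratio was 0.370 (0.246 to 0.551), where 1.94% of 11770 genes were called lower and 5.00% higher. The 67 untreated counts came from 18 nuclei, and with a mean over nuclei in place of summed counts the ratio was 0.587 and no longer called. It was also not called after thinning, at 0.367 on too few counts, or in nuclei picked by at least 3 macrophage markers, at 0.503. Atp6v0d2 had a ratio of 0.950 (0.925 to 0.976) and Ctsk of 1.42 (1.29 to 1.58) there, against 0.677 and 1.04 in foam-type nuclei. Outside the foam-type nuclei Atp6v0d2 was called higher in high-fat, by 6.75-fold (5.10 to 9.01) in resident macrophage-and-monocyte-like nuclei and by 4.03-fold (3.23 to 5.03) in T- or NK-like nuclei. Of all genes tested, 1.78% were called higher in those resident nuclei and 2.70% in T- or NK-like nuclei. In high-fat its level in resident nuclei, 273 CPM, was below the 467 CPM of T- or NK-like nuclei.

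The MTZ libraries were each set against the same high-fat library, so their ratios share it. Over all kept nuclei of MTZ-after, Atp6v0d2 had 225 CPM against 664 CPM in high-fat (ratio 0.339, interval 0.330 to 0.348), Ctsk 23.7 against 56.8 CPM (0.416, 0.382 to 0.453) and Dcstamp 1.06 against 2.26 CPM (0.469, 0.303 to 0.706). All 3 were called lower, as were 2.55% of all genes tested, while 13.7% were called higher. In MTZ-simultaneous, Atp6v0d2 had 204 CPM (ratio 0.307, interval 0.30 to 0.315) and Dcstamp 0.813 CPM (0.360, 0.230 to 0.547). These 2 were called lower, where 2.42% of genes were lower and 8.05% higher. After thinning Dcstamp was called in neither library, at 0.653 in MTZ-after and, on too few counts, at 0.381 in MTZ-simultaneous. The Ctsk ratio was 0.608 (0.568 to 0.651) and was not called. Foam-type nuclei held 4.68% of the UMIs of MTZ-after and 6.59% of those of MTZ-simultaneous, against 22.6% of high-fat. MTZ-after also held nuclei of other organs, with 4085 adrenal-cortex-like, 1501 chromaffin-like and 921 hepatocyte-like nuclei, against 1, 0 and 6 in high-fat. Their part in the ratios over all nuclei was not tested.

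Within foam-type nuclei none of the 7 genes was called in either MTZ library, and 5 of the 7 had enough counts. Of all genes tested there, 3.27% were called lower and 1.06% higher in MTZ-after, and 3.78% lower and 0.767% higher in MTZ-simultaneous. In MTZ-after, Atp6v0d2 had a ratio to high-fat of 1.17 (1.12 to 1.23), Ctsk of 1.25 (1.08 to 1.45), Tnfrsf11a of 0.950 (0.814 to 1.10), Nfatc1 of 1.06 (0.869 to 1.28) and Acp5 of 0.993 (0.696 to 1.38). In MTZ-simultaneous, Atp6v0d2 had a ratio of 0.964 (0.927 to 1.00), Tnfrsf11a of 1.31 (1.17 to 1.45), Nfatc1 of 0.882 (0.746 to 1.04) and Acp5 of 0.997 (0.757 to 1.30). Ctsk stood at 194 CPM in MTZ-simultaneous against 125 CPM in high-fat, a ratio of 1.55 (1.39 to 1.72). Split by cluster, Ctsk had 201 CPM against 91.4 CPM in cluster 2 and was called higher (2.20-fold, 1.95 to 2.48; 0.771% of genes were), whereas in cluster 15 it had 142 CPM against 258 CPM (0.550, 0.389 to 0.759). In cluster 15 of MTZ-simultaneous, Nfatc1 was called lower from 10 counts (ratio 0.396, interval 0.187 to 0.745), where 11.7% of genes were called lower.

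In macrophage-like nuclei as a whole none of the 7 was called in either MTZ library, and 5 of the 7 had enough counts. There, 1.71% of genes were lower and 2.59% higher in MTZ-after, and 1.52% lower and 3.12% higher in MTZ-simultaneous. The Atp6v0d2 level of 736 CPM in MTZ-simultaneous against 1309 CPM in high-fat (ratio 0.562, interval 0.541 to 0.584) came nearest to the threshold, and it passed the threshold after thinning, in nuclei picked by at least 3 macrophage markers and with means over nuclei. Foam-type nuclei made up 977 of 2310 macrophage-like nuclei in MTZ-simultaneous and 6796 of 7278 in high-fat. In resident macrophage-and-monocyte-like nuclei Atp6v0d2 was called lower than in high-fat in both MTZ libraries, at 0.448 (0.337 to 0.592) in MTZ-after and 0.202 (0.144 to 0.280) in MTZ-simultaneous, where 0.607% and 0.660% of genes were called lower. In T- or NK-like nuclei it was called lower as well, at 0.192 (0.127 to 0.281) and 0.40 (0.309 to 0.513), against 2.71% and 1.96% of genes. The direction was thus the same in these classes, but the order of the MTZ libraries was not. The lower ratio was 0.202 in MTZ-simultaneous for resident nuclei and 0.192 in MTZ-after for T- or NK-like nuclei. The cause of these calls was not tested.

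The pathway around these genes was read from 8 lists of 81 genes in all. Between foam-type and resident nuclei, 49 of the 81 had enough counts in all 4 libraries, of which 10 were called higher and 2 lower in all 4. Of all 3896 genes with enough counts in all 4, 5.24% were called higher and 2.34% lower in all 4. Of the 4 ligand and decoy genes only 1 had enough counts in all 4 libraries, and none was called in all 4. RANKL itself, Tnfsf11, gave 18, 19, 66 and 26 counts over all kept nuclei of MTZ-after, MTZ-simultaneous, high-fat and untreated, of which foam-type nuclei held 0, 0, 14 and 4. Of 15 receptors and adaptors, 10 had enough counts in all 4 libraries. Trem2 was called higher in all 4, at 5.43-fold, 7.15-fold, 3.46-fold and 14.6-fold in that order. Csf1r, the receptor of M-CSF, was called lower in all 4, at 0.483, 0.409, 0.455 and 0.394. Trem2, a lipid-sensing receptor, is a marker that helped to name the foam-type clusters, and Csf1r is a marker of macrophages in general.

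Of 13 transcription factors that promote osteoclasts, 6 had enough counts in all 4 libraries. Among them only Tfec, a relative of MITF, was called higher in foam-type than in resident nuclei in all 4. It stood at 3.58-fold in MTZ-after, 3.86-fold in MTZ-simultaneous, 2.19-fold in high-fat and 4.33-fold in untreated. Library by library in that order, 1, 2, 1 and 2 of the 13 were called higher and 1, 0, 0 and 3 lower. Of 6 that restrain them, 5 had enough counts in all 4 libraries. Only Rbpj, the nuclear effector of Notch signalling, was called in all 4, and it was lower, at 0.191, 0.225, 0.168 and 0.0833. Of 8 fusion genes, 5 had enough counts in all 4 libraries, and Adam8 and Cd9 were called higher in all 4. Adam8, a membrane protease, stood at 4.29-fold, 4.65-fold, 5.74-fold and 3.29-fold, and the tetraspanin Cd9 at 2.03-fold, 2.72-fold, 2.10-fold and 4.06-fold. These genes thus differed between the classes where Dcstamp and Ocstamp gave too few counts to be called.

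Of 12 genes of acid secretion and resorption, 7 of which were tested in all 4 libraries, 4 were called higher in foam-type nuclei of all 4 libraries. The cathepsins led, with Ctsl at 13.1-fold, 6.25-fold, 4.16-fold and 23.9-fold and Ctsb at 5.17-fold, 3.45-fold, 3.16-fold and 8.90-fold in MTZ-after, MTZ-simultaneous, high-fat and untreated. Clcn7, the chloride and proton exchanger of lysosomes and of the osteoclast border, stood at 2.15-fold, 2.44-fold, 2.52-fold and 2.77-fold, and Plekhm1, a regulator of lysosomal trafficking, at 2.87-fold, 3.83-fold, 2.0-fold and 4.71-fold. Of 10 other genes of the V0 sector, 7 of which were tested in all 4 libraries, none was called in all 4. Atp6v0d1, which encodes the widely expressed d1 counterpart of Atp6v0d2, had ratios of 1.73 (1.34 to 2.27), 1.68 (1.38 to 2.05), 1.29 (1.03 to 1.63) and 1.87 (1.65 to 2.14). Of 13 genes of the V1 sector, 8 were tested in all 4 libraries. The catalytic A subunit gene Atp6v1a was called higher in all 4, at 3.21-fold, 3.13-fold, 2.19-fold and 3.76-fold. So was Atp6v1b2, at 3.27-fold, 3.62-fold, 2.10-fold and 3.83-fold. The foam-type clusters were defined from all variable genes other than the 7, so these ratios describe the clusters and test nothing.

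**Figure D3:**
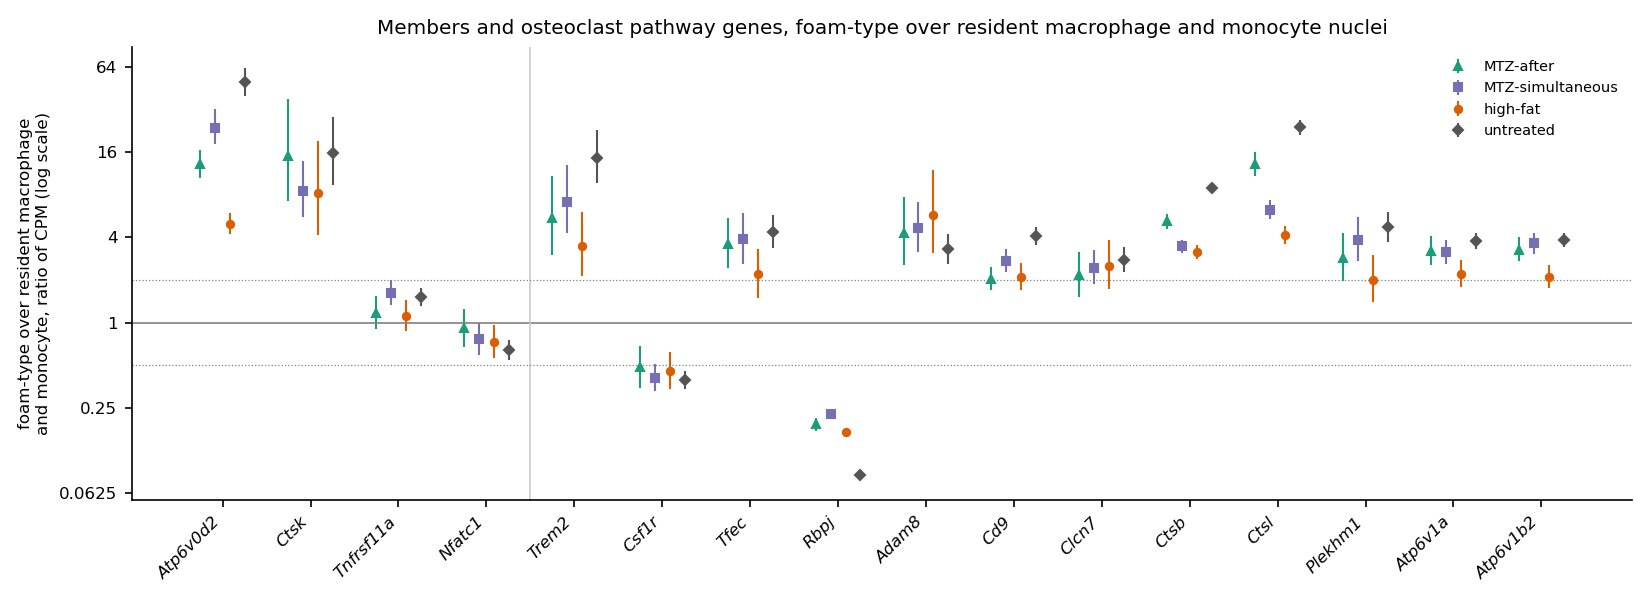
Ratio of CPM in foam-type to resident macrophage-and-monocyte-like nuclei (log axis, 95% counting intervals, 1 point per library) for 4 of the 7 genes and for the 12 pathway genes that were called in all 4 libraries. Csf1r and Rbpj lie under 1 in all 4 libraries, and Ctsl spans 4.16 in high-fat to 23.9 in untreated.

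Between libraries few pathway genes were called in these nuclei. In foam-type nuclei of high-fat against untreated, Tnfrsf11b, the decoy receptor of RANKL, was called higher (17.5 against 2.10 CPM, 8.33-fold, 4.29 to 18.5). It was called lower in MTZ-after (3.65 CPM, ratio to high-fat 0.209, interval 0.0670 to 0.496) and in MTZ-simultaneous (6.38 CPM, 0.365, 0.20 to 0.617). T- or NK-like nuclei had 31.8, 10.2, 26.4 and 4.23 CPM of Tnfrsf11b in MTZ-after, MTZ-simultaneous, high-fat and untreated. Those levels, from 5 to 12 counts, were above the foam-type ones in all 4 libraries, and an unnamed cluster that Tnfrsf11b helped to lead had 183, 141, 228 and 251 CPM, so a level in foam-type nuclei themselves is not shown. Also called lower in foam-type nuclei of high-fat were Tyrobp, the adaptor of TREM2, at 0.451 (0.407 to 0.499), and Ctsl at 0.448 (0.438 to 0.458). In MTZ-simultaneous Nfkb2, a subunit of the alternative NF-kB pathway, was called lower at 0.458 (0.230 to 0.830), from 12 against 116 counts. In macrophage-like nuclei as a whole, Tnfrsf11b was called higher in high-fat than in untreated, at 8.0 (4.65 to 14.9). Csf1r at 0.410 (0.365 to 0.459) and Rbpj at 0.380 (0.368 to 0.393) were called lower there, where 1.94% of genes were lower and 5.00% higher. Against high-fat, Tnfrsf11b was called lower there in MTZ-after, at 0.279 (0.137 to 0.510), and in MTZ-simultaneous, at 0.467 (0.319 to 0.667). MTZ-simultaneous also had Csf1r called higher, at 2.15 (1.89 to 2.45), and Ctsl lower, at 0.469 (0.451 to 0.487). Of all genes, 1.71% were lower in MTZ-after, and 1.52% lower and 3.12% higher in MTZ-simultaneous. Within foam-type nuclei Csf1r and Rbpj were not called in high-fat against untreated, nor Csf1r and Ctsl in MTZ-simultaneous. Foam-type nuclei were 977 of 2310 macrophage-like nuclei in MTZ-simultaneous, 6796 of 7278 in high-fat and 1066 of 2055 in untreated. The part of this mix in these calls was not tested. No gene of the cell fusion, V0 or V1 lists was called in foam-type nuclei in any of the 3 comparisons. Of these 8, 10 and 13 genes, 6 or 7, 8 and 9 had enough counts. Of all genes, 0.721% to 3.78% were called lower there and 0.767% to 7.61% higher.

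Within foam-type nuclei, nuclei with Atp6v0d2 were set beside nuclei without it. After thinning to 500 UMIs, 8.52%, 8.50%, 7.75% and 9.57% of foam-type nuclei of MTZ-after, MTZ-simultaneous, high-fat and untreated held UMIs of at least 2 of the 7 genes, against 0.709%, 0.761%, 1.36% and 0.521% of resident macrophage-and-monocyte-like nuclei. Ctsk was found in 4.76% (4.03 to 5.59) of high-fat foam-type nuclei with Atp6v0d2 and in 4.14% (3.53 to 4.82) of those without. Tnfrsf11a was found in 7.04% (6.15 to 8.02) of those with Atp6v0d2 and in 6.87% (6.09 to 7.72) of those without. The shares with and without Atp6v0d2 thus had overlapping intervals in the library with most nuclei. In untreated, Acp5 was found in 1.51% (0.655 to 2.96) of nuclei with Atp6v0d2 and in 3.72% (2.29 to 5.69) of those without, and Tnfrsf11a in 8.88% (6.60 to 11.6) and 5.77% (3.96 to 8.09). These intervals overlapped as well.

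**Figure D4:**
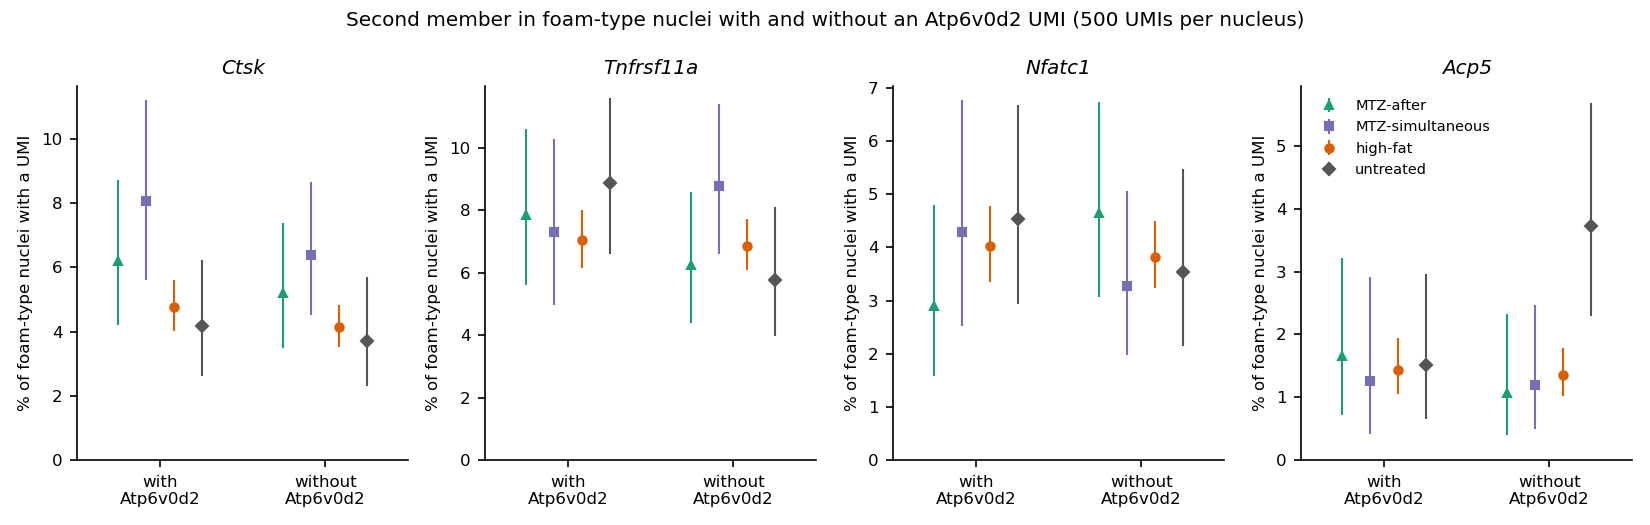
Share of foam-type nuclei, thinned to 500 UMIs, with a UMI of Ctsk, Tnfrsf11a, Nfatc1 or Acp5 among nuclei with and among nuclei without a UMI of Atp6v0d2 (percent, 95% binomial intervals, 4 libraries). The intervals of the paired points overlap for all 4 genes in all 4 libraries.

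The likeness of each gene to others was described by Pearson's r of log2(CPM + 1) over 77 profiles, each a class in a library, among genes with at least 500 counts. The profiles share libraries and depth, so r is a description. Atp6v0d2 was most like St18 (0.96), Gpnmb (0.96), Mthfs (0.95), Fmn1 (0.93) and Fnip2 (0.92). Ctsk was most like Mmp12 (0.88), Anxa4 (0.86), Samd8 (0.86), Lgals3 (0.86) and Fbxo32 (0.85), and Tnfrsf11a like Ptpre (0.87), Acer3 (0.86), Rassf3, Rab8b and Tmem51 (0.85 each). Acp5 was most like Lpl (0.77), Gde1 (0.74), Plin2 (0.72), Taldo1 (0.70) and Sema4b (0.68), among them a lipase and a lipid-droplet protein. Nfatc1 was most like Sh2d3c (0.83), Susd6 (0.74), Apobec3 (0.74), Nfatc2 (0.73) and Inpp4b (0.72). Dcstamp reached at most 0.64, with Atf6, and Ocstamp at most 0.44, with Folr2, as few counts allowed. Among the 7 themselves, Atp6v0d2 and Ctsk were most alike (0.80), followed by Atp6v0d2 and Tnfrsf11a (0.64). Acp5 had 0.42 with Atp6v0d2 and 0.44 with Ctsk, and Nfatc1 had 0.15 with Atp6v0d2 and 0.02 with Ctsk.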

How the data were processed

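Nuclear RNA of aortic tissue was measured in 4 libraries, 1 per group. The deposited values are whole UMI counts per gene and nucleus, made by the authors with Cell Ranger 7.0.1 per the file headers, and the submitters' processing notes name STAR and mm10. The sources used here do not state the strand setting or whether intronic reads were counted.

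Nuclei with at least 300 genes and at most 10% mitochondrial counts were kept. Nuclei whose Scrublet score was above the threshold set at the highest 8% of scores were removed (7.01% to 7.67% of a library, since tied scores were kept), because automatic thresholds failed. Counts were scaled to 10000 per nucleus, and 2000 variable genes without the 7 members were z-scaled, reduced to 30 components and clustered (20 neighbours, Leiden resolution 1) with scanpy 1.11.5, leidenalg 0.10.2 and Python 3.11.15. Scaling and the doublet rule were adopted after clusters and scores had been seen, and the unscaled alternative was likewise chosen after seeing the data. A name needed at least 3 enriched markers (2-fold).

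Counts were summed per class and library and given as CPM with exact Poisson intervals, shares with Clopper-Pearson intervals and ratios with exact conditional intervals, all at 95% and for counting error only, as amplified reads are corrected by UMI but nuclei of 1 library are not replicates. With 1 library per group no p-value was computed. A ratio of at least 2 with at least 50 counts on the higher side was called. The rule was run on simulated counts with counting error only, in which well-counted genes changed by more than the threshold. These counts held no variation between nuclei or animals, so they cannot show how often the calls here err. Shares of nuclei were also compared after thinning to 500 UMIs.

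The members and lists were chosen with earlier results of these data known. Named were all members, up to 4 called pathway genes of a list, those furthest from a ratio of 1, and the 5 genes most like each member. The alternatives were other doublet, filter, scaling, centring and resolution settings, TMM scaling with edgeR 4.0.16 (R 4.3.3), thinning, no count minimum, marker-defined nuclei and means per nucleus. GENCODE vM21 matched 32235 of 32285 gene IDs.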

Additional observations from a re-analysis of the deposited data

How the results depend on the processing

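No called member ratio changed direction under the alternatives that were run. Of 244 counts of called genes under alternatives, 222 were within 1.5 times the reported count. A 0 that stayed at 0 was scored as within, as was a 3 that became 2. Most reported counts were 0, so the 222 says little about the calls that were made. Of 771 member ratios 618 stayed within the counting interval of the reported ratio. In macrophage-like nuclei of high-fat against untreated, 1 gene was called lower (Dcstamp). This became 2 without doublet removal and without z-scaling (Acp5 added), 2 without a count minimum (Ocstamp added), and 0 after thinning, in nuclei with at least 3 macrophage markers and with means per nucleus. In foam-type nuclei 1 gene was called lower (Acp5), which became 2 without doublet removal (Atp6v0d2 added) and without z-scaling (Dcstamp added), and 0 after centring each library and after thinning. In macrophage-like nuclei of MTZ-simultaneous against high-fat, where 0 were called lower, 1 was after thinning, with at least 3 markers and with means per nucleus (Atp6v0d2 each time), and 1 without a count minimum (Ocstamp). Over all nuclei the 2 called lower in MTZ-simultaneous became 1 after thinning (Atp6v0d2). In foam-type nuclei of MTZ-simultaneous, 1 was called higher without doublet removal (Ctsk). The 2 genes higher in foam-type than in resident nuclei in all 4 libraries became 1 after thinning (Atp6v0d2). Without a count minimum 1 gene was added in each of 5 other counts that stood at 0, from Ocstamp or Dcstamp. The cause of these shifts was not tested, beyond the smaller counts that thinning leaves. The foam-type Acp5 ratio of high-fat to untreated ranged over 0.351 to 0.521, that of Atp6v0d2 over 0.470 to 0.827, and that of Ctsk over 0.637 to 1.28. The foam-type Ctsk ratio of MTZ-simultaneous to high-fat ranged over 1.18 to 2.14. Without z-scaling no resident class was found. No paired analysis was possible because each group has 1 library. Dcstamp and Ocstamp are limited by their few counts.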
